A study of Mus musculus with 6 samples.

Results

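Eomes, Lmx1a, Lmx1b, Tbr1, Lhx9, Meis2, Calb2, Slc17a6 and Slc17a7 are genes of the rhombic-lip lineages of the cerebellum other than granule cells, that is of glutamatergic nuclear neurons and unipolar brush cells, together with the vesicular glutamate transporters of these cells. These 9 genes were taken by gene name from a table of 54532 genes, and all 9 passed the filter on low counts that left 17505 genes for testing. The table holds bulk poly(A) RNA-seq of mouse cerebella at postnatal day 1, from 3 control libraries (Ctrl1 to Ctrl3, Tox3f/f littermates) and 3 mutant libraries (cKO1 to cKO3, Nestin-cre;Tox3f/f), and the question was how loss of the HMG-box protein Tox3 in neural cells changed these genes. Both groups carry the floxed Tox3 alleles, and the Nestin-cre transgene, which drives Cre in neural progenitors throughout the nervous system, is present in mutants only, so effects of the transgene cannot be told apart from those of the deletion.

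The rhombic lip is the germinal zone at the edge of the fourth ventricle roof that gives rise to the glutamatergic neurons of the cerebellum. Its Atoh1-positive progenitors first produce the excitatory projection neurons of the cerebellar nuclei and then the granule neuron progenitors, whereas unipolar brush cells, excitatory interneurons of the granular layer, leave it late and carry the T-box factor Eomes. Nuclear neurons pass through stages marked by Meis2, Lhx9 and Tbr1, and excitatory neurons load glutamate into vesicles with Slc17a6 (VGLUT2) or Slc17a7 (VGLUT1).

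Total counts per library ranged from 15391854 to 17178478, so that 3 counts correspond to at most 0.196 CPM (counts scaled to the size of the library). The 9 genes together took 0.0239% to 0.0263% of the counts. Tox3 itself had 987, 968 and 1003 counts in control libraries and 959, 970 and 951 in mutant libraries, a gene-level count that does not check the labels, and group names below are those of the labels. Atoh1, the basic helix-loop-helix factor of the rhombic lip, had 481 to 501 counts in libraries labelled control and 4 to 10 in those labelled mutant. By Xist and Ddx3y, Ctrl1, cKO1 and cKO3 were male and the other libraries female, and cKO2 also stood apart from cKO1 and cKO3 in the choroid plexus gene Ttr, with 93 counts against 3137 and 11412.

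The quasi-likelihood test of edgeR was used, with p-values adjusted by the Benjamini-Hochberg method, and a gene was called when its adjusted p was under 0.01 and its log2 fold change passed 0.5 in either direction. These limits called 6.66% of all tested genes, 3.63% lower and 3.03% higher in mutant libraries. Of the 9 genes, 2 were called, Meis2 and Calb2, both higher. Eomes and Slc17a6 were lower with an adjusted p under 0.01, a limit that 13.8% of all tested genes reached, but with a log2 fold change short of 0.5. For 6 of the 9 genes the control and mutant libraries did not overlap in CPM, as for 40.5% of all tested genes. Eomes, Slc17a6 and Slc17a7 were lower in this sense, as were 20.1% of all tested genes, and Tbr1, Meis2 and Calb2 higher, as were 20.4%. The median log2 fold change of the 9 genes was 0.22, with 3 negative values, and that of all tested genes was -0.0070. In whole-tissue RNA, a changed share of cells of a type and a changed amount of RNA per cell cannot be told apart. This holds for rises as for falls, for these and all later values. The labels do not say whether a library is 1 animal or a pool, so p-values measure the spread between these libraries.

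**Figure D1:**
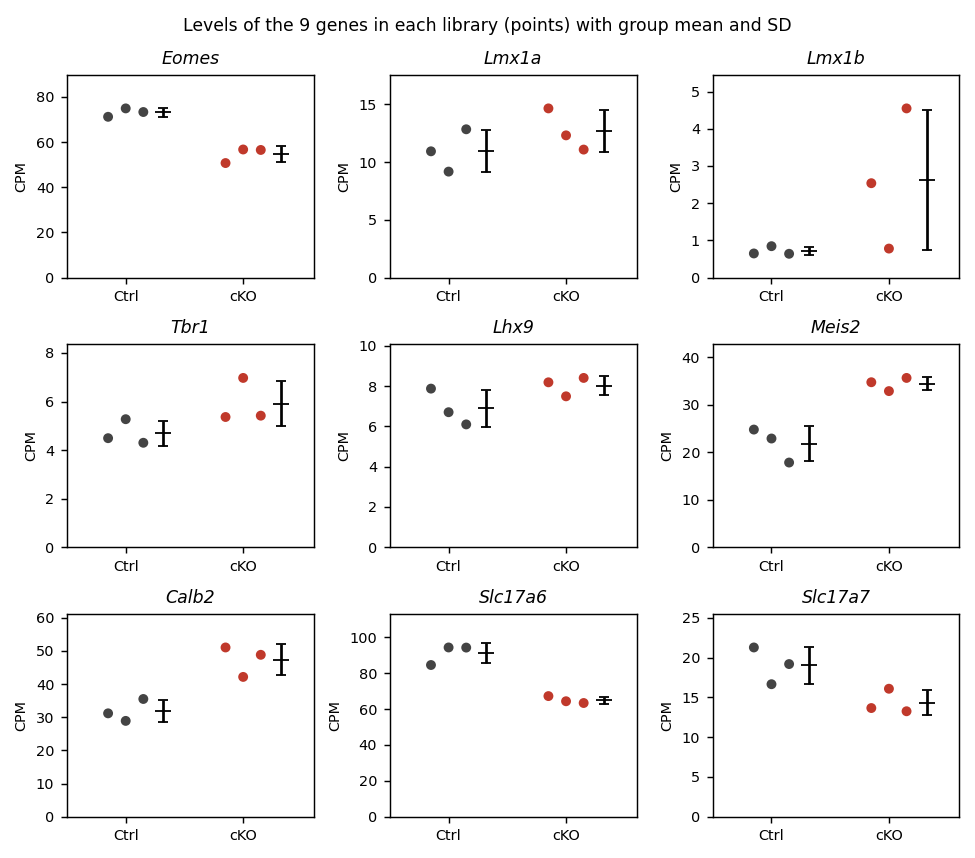
Levels of the 9 genes in CPM (y axis, starting at 0) in the 3 control (grey) and 3 mutant (red) libraries, each point a library in the order 1 to 3, with the group mean and SD beside them. Eomes, Slc17a6 and Slc17a7 are lower and Tbr1, Meis2 and Calb2 higher in every mutant library than in any control library, whereas Lmx1b is high in cKO1 and cKO3 only.

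Promoter sequences from RefSeq (GRCm38.p6), each running from 250 bases before to 50 bases after an annotated start, were matched by symbol for 8 of the 9 genes, with 9 windows in all because Slc17a6 has 2 starts. They were searched on both strands for the E-box CANNTG recognised by basic helix-loop-helix factors such as Atoh1, its forms CAGCTG and CAGATG, the homeodomain motif TAATTA, the Meis motif TGACAG and the T-box motif GGTGTGA. The paralogs Eomes and Tbr1 are shown first because their mutant libraries lay on opposite sides of the controls, although for Tbr1 the difference was within the error. They are followed by Meis2, which was called, Lmx1b, which varied most, and the transporters Slc17a6 (the upstream of its starts) and Slc17a7. Capitals mark matches to the E-box, the homeodomain motif and the Meis motif on either strand.
Eomes: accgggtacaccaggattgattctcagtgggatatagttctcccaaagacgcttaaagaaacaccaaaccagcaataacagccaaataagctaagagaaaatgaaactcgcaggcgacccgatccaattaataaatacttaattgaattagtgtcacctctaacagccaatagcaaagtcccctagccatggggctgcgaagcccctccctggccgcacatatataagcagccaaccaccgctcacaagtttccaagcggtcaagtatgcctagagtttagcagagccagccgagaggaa
Tbr1: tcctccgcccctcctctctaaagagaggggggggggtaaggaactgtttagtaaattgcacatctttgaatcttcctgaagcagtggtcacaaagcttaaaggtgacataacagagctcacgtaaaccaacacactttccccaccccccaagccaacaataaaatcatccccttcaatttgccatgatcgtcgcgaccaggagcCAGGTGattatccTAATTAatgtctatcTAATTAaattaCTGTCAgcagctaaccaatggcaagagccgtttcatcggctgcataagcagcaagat
Meis2: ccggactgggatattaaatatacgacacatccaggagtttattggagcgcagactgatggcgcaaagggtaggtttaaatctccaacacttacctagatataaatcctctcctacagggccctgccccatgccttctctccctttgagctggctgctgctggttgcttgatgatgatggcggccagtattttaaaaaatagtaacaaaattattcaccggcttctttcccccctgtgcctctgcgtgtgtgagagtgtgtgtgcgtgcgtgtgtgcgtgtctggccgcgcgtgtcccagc
Lmx1b: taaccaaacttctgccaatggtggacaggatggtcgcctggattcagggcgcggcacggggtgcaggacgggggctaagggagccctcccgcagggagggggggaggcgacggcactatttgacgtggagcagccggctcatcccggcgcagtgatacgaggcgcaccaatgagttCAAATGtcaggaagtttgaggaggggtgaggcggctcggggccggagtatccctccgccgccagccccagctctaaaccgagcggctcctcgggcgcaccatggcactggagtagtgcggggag
Slc17a6: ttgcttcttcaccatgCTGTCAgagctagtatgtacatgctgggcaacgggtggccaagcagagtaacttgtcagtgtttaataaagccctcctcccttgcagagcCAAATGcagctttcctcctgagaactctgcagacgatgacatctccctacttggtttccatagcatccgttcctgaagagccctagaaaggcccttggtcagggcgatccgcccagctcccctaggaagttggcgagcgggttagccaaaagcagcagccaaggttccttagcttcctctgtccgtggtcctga
Slc17a7: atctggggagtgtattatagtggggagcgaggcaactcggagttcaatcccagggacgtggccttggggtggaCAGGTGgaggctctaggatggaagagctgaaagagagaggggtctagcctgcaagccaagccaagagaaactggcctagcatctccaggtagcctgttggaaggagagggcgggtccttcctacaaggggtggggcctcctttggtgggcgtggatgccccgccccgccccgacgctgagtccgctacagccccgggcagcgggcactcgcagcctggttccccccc

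In GRCm38 these windows lie at chr9:118477939-118478238 on the plus strand for Eomes, chr2:61804203-61804502 on the plus strand for Tbr1 and chr2:116064570-116064869 on the minus strand for Meis2. Those of Lmx1b, Slc17a6 and Slc17a7 lie at chr2:33641049-33641348 on the minus strand, chr7:51621580-51621879 on the plus strand and chr7:45163671-45163970 on the plus strand. The E-box CANNTG occurs in 72.3% of 32851 RefSeq mouse promoter windows of the same length, and the windows of Eomes and Meis2 hold none. The Tbr1 window holds CAGGTG 46 bases before the start, TAATTA at 33 and 18 bases before it and CTGTCA, the reverse strand of TGACAG, at 7 bases before it. TAATTA occurs in 5.29% and TGACAG in 19.2% of all windows. Slc17a7 holds CAGGTG 177 bases before its start, Lmx1b CAAATG 74 bases before it, and the Slc17a6 window shown CAAATG at 144 and CTGTCA at 234 bases before it. CAGCTG, found in 16.3% of all windows, and GGTGTGA, in 3.98%, are in none of the 9 windows. The single CAGATG among them, a motif that 17.2% of all windows hold on either strand, is in the second Slc17a6 window, 205 bases before its start. Such matches describe letters in these windows only.

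Eomes (ENSMUSG00000032446, chr9:118478212-118486132, plus strand), which encodes the T-box factor that marks unipolar brush cells, was measured at 71.2, 74.9 and 73.3 CPM in control and 50.7, 56.7 and 56.5 CPM in mutant libraries. All 3 mutant libraries lay below all 3 controls, and cKO1 was the lowest. The group means were 73.1 ± 1.86 and 54.6 ± 3.41 CPM (SD, n = 3). The log2 fold change was -0.42 (SE 0.06, 95% interval -0.56 to -0.28), with an edgeR adjusted p of 0.00125. The difference exceeded the spread between libraries, but its size did not reach the limit of 0.5 for a call. An antisense gene that overlaps Eomes, Gm33460, had at most 5 counts in any library.

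Tbr1 (ENSMUSG00000035033, chr2:61802930-61814114, plus strand), the T-box factor of postmitotic nuclear neurons, stood at 4.49, 5.27 and 4.30 CPM in control and 5.36, 6.97 and 5.42 CPM in mutant libraries. The mutant libraries all lay above the controls, with cKO1 only just above Ctrl2. Its log2 fold change was 0.33 (SE 0.18, 95% interval -0.06 to 0.72) with an edgeR adjusted p of 0.197, so the difference was within the error at 67 to 107 counts per library. On the FPKM scale, which divides by gene length, Eomes exceeded Tbr1 by a ratio of 20.9, 18.7 and 22.5 in control and 12.5, 10.7 and 13.8 in mutant libraries. The ratio was lower in all 3 mutant libraries, with a difference of -0.75 on the log2 scale. An exact two-sided permutation test gave p = 0.1, the smallest that 3 against 3 libraries allow, and an adjusted p of 0.167 over 5 such exact tests, of which 2, on sums of transporter genes, were chosen after the values were seen. Tbx21, the remaining gene of this T-box subfamily, had 9 to 18 counts per library and a log2 fold change of 0.42 with an edgeR adjusted p of 0.480.

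Lmx1a (ENSMUSG00000026686, chr1:167689237-167848741, plus strand) encodes a LIM-homeodomain factor of the roof plate and rhombic lip that is kept in unipolar brush cells. It was measured at 10.9, 9.18 and 12.8 CPM in control and 14.6, 12.3 and 11.1 CPM in mutant libraries. The groups overlapped, and the log2 fold change was 0.21 (SE 0.15, 95% interval -0.13 to 0.55) with an edgeR adjusted p of 0.352.

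Its paralog Lmx1b (ENSMUSG00000038765, chr2:33560965-33640511, minus strand), a factor of the roof plate, the isthmus and monoamine neurons, was the lowest of the 9 genes. It had 10, 13 and 10 counts in control and 44, 12 and 73 counts in mutant libraries, or 0.651, 0.846 and 0.642 CPM against 2.54, 0.782 and 4.55 CPM. cKO2 lay within the control range, and cKO1 and cKO3 lay above it. The log2 fold change was 1.87 (SE 0.56, 95% interval 0.62 to 3.12) with an edgeR adjusted p of 0.0345, and the coefficient of variation among mutant libraries was 71.8%. The value rested on single libraries. Without cKO3 it was 1.23 (edgeR adjusted p = 0.155), without cKO2 it was 2.31 (edgeR adjusted p = 0.00136), and without both cKO1 and cKO3 it was 0.12 (edgeR adjusted p = 0.942). DESeq2, at 1.89 (adjusted p = 0.00371), and edgeR without the filter on low counts, at 1.88 (adjusted p = 2.67e-05), called it. The FPKM ratio of Lmx1a to Lmx1b was 24.1, 15.6 and 28.7 in control and 8.30, 22.6 and 3.50 in mutant libraries. Its log2 difference of -1.35 had an exact permutation p of 0.2, adjusted to 0.25 over the 5 exact tests.

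Some genes of other cell types were high in the same libraries as Lmx1b, and others of the same lists were not. Dbh, the enzyme that makes noradrenaline, had 9, 7 and 6 counts in control and 88, 11 and 200 in mutant libraries, with a log2 fold change of 3.66 and an edgeR adjusted p of 0.0120. Th, which catalyses the first step of catecholamine synthesis, had 4, 6 and 4 against 33, 2 and 33 counts and was not tested. The noradrenergic and hindbrain factor Phox2a had 1, 2 and 5 against 7, 2 and 16 counts, and the midbrain factor Pax7 had 25, 12 and 9 against 44, 17 and 42. The 9 monoamine neuron genes summed to 7.64 to 10.2 CPM in control libraries and to 15.9, 8.15 and 32.3 CPM in cKO1, cKO2 and cKO3. The monoamine genes Ddc, with 36, 41 and 43 counts in mutant libraries against 19 to 26 in controls, and Slc18a2, with 104, 56 and 221 against 68 to 107, did not share the pattern in full, since Ddc was not low in cKO2 and Slc18a2 was within the control range in cKO1. None of the 3 that were tested was called, and the defining serotonergic genes Fev, Tph2 and Slc6a4 had 0 to 1, 2 to 8 and 1 to 10 counts per library. The 9 roof plate and choroid plexus genes summed to 140 to 207 CPM in control libraries and to 230, 40.9 and 790 CPM in cKO1, cKO2 and cKO3, of which Ttr alone gave 181, 6.06 and 711 CPM. Without Ttr, the other 8 genes summed to 69.3 to 75.8 CPM in control libraries and to 49.3, 34.8 and 78.9 CPM in mutant libraries. In that sum cKO1 lay below every control, but most of the control sum was Otx2, which was low in all 3 mutant libraries. Otx2 stood at 55.5, 49.0 and 54.2 CPM in control and 24.7, 22.0 and 24.0 CPM in mutant libraries. Clic6 had 71, 59 and 40 counts in control and 114, 32 and 338 in mutant libraries, and Aqp1 had 55, 41 and 46 against 84, 26 and 167. Folr1 had 42, 29 and 42 against 46, 27 and 126. Kl, with 24, 21 and 36 counts in mutant libraries against 10 to 17 in controls, was not low in cKO2. Neither was Gdf7, with 10, 13 and 15 against 4 to 7. The roof plate gene Msx1 had 146, 75 and 199 against 121 to 161, so cKO1 was within the control range. Of the 7 tested genes listed for roof plate and choroid plexus, Otx2 was called lower (log2 fold change -1.16, edgeR adjusted p = 1.81e-05). The others were not called, Ttr with a log2 fold change of 1.58 and an edgeR adjusted p of 0.271. The log2 fold change of Otx2 was near the median of -1.21 for granule progenitor genes. Which cells the Otx2 reads come from was not tested. The part of monoamine neurons and choroid plexus in the Lmx1b value was not tested. In a fit that took the mean level of genes on chromosome Y as a covariate, Lmx1b stood at 1.44 (edgeR adjusted p = 0.0383).

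**Figure D2:**
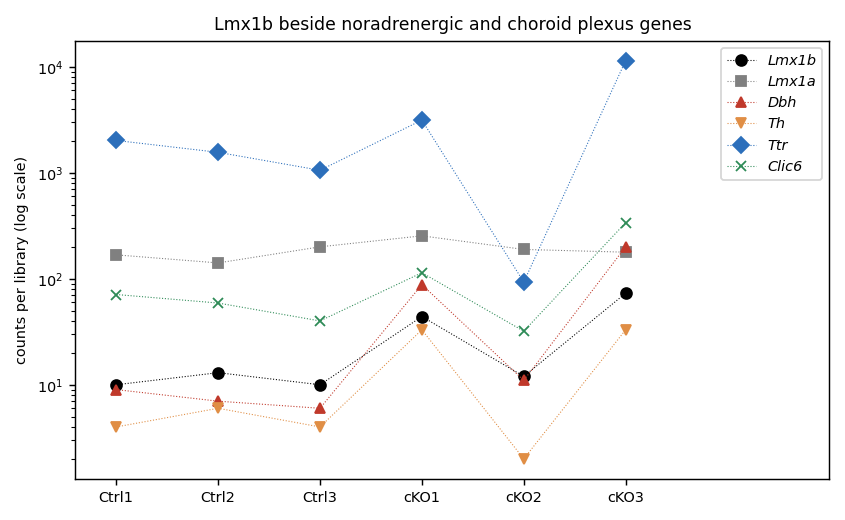
Counts per library (y axis, log scale) of Lmx1b, Lmx1a, the noradrenergic genes Dbh and Th and the choroid plexus genes Ttr and Clic6 in each control and mutant library. Lmx1b, Dbh, Th, Ttr and Clic6 are higher in cKO1 and cKO3 than in cKO2, whereas Lmx1a stays between 141 and 254 counts; dotted lines only join the points of a gene.

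Lhx9 (ENSMUSG00000019230, chr1:138825186-138848577, minus strand) encodes a LIM-homeodomain factor of early nuclear neurons. It was measured at 7.88, 6.71 and 6.10 CPM in control and 8.19, 7.49 and 8.41 CPM in mutant libraries, where cKO2 lay below Ctrl1. The log2 fold change of 0.22 (SE 0.14, 95% interval -0.10 to 0.54) had an edgeR adjusted p of 0.297.

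Meis2 (ENSMUSG00000027210, chr2:115863064-116065839, minus strand), a TALE homeodomain factor of the nuclear neurons, was 1 of the 2 genes called. Its level was 24.8, 22.9 and 17.9 CPM in control and 34.8, 32.9 and 35.7 CPM in mutant libraries. Every mutant library lay above every control, and the mutant libraries were closer to each other than the controls were. The means were 21.9 ± 3.59 and 34.5 ± 1.42 CPM (SD, n = 3), a rise of 57.7%, with a log2 fold change of 0.66 (SE 0.12, 95% interval 0.40 to 0.92) and an edgeR adjusted p of 0.00270. The call was lost without cKO1 (log2 fold change 0.65, edgeR adjusted p = 0.0118) or without cKO3 (0.63, edgeR adjusted p = 0.0140). It was also lost in limma on log2(FPKM + 1) and log2(FPKM + 0.1), with adjusted p of 0.0161 and 0.0186. The paralog Meis1, also carried by granule cells, had a log2 fold change of -0.21 with an edgeR adjusted p of 0.0170.

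Calb2 (ENSMUSG00000003657, chr8:110137502-110168210, minus strand) encodes calretinin, a calcium-binding protein found in a class of unipolar brush cells. Its level rose from 31.2, 28.9 and 35.5 CPM in control to 51.0, 42.2 and 48.8 CPM in mutant libraries. The groups did not overlap, and cKO2 was the lowest mutant library. The means were 31.9 ± 3.35 and 47.3 ± 4.62 CPM (SD, n = 3), a rise of 48.6%, with a log2 fold change of 0.57 (SE 0.10, 95% interval 0.35 to 0.80) and an edgeR adjusted p of 0.00280. Its call was lost when Ctrl1, Ctrl2, cKO1 or cKO3 was left out, with edgeR adjusted p between 0.0105 and 0.0140 and log2 fold changes between 0.51 and 0.56. With cKO1 and cKO3 both left out, Calb2 stood at 0.39 and Meis2 at 0.58, with edgeR adjusted p of 0.108 and 0.0775.

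Slc17a6 (ENSMUSG00000030500, chr7:51622006-51671119, plus strand), the vesicular glutamate transporter of nuclear neurons and young granule cells, was measured at 84.5, 94.3 and 94.2 CPM in control and 67.2, 64.3 and 63.3 CPM in mutant libraries. All mutant libraries lay below all controls. The means were 91.0 ± 5.62 and 65.0 ± 2.0 CPM (SD, n = 3), with a log2 fold change of -0.49 (SE 0.06, 95% interval -0.62 to -0.35) and an edgeR adjusted p of 4.59e-04. It missed the fold limit narrowly, and passed it without Ctrl1 (-0.54) or without cKO1 (-0.51).

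Slc17a7 (ENSMUSG00000070570, chr7:45163949-45176142, plus strand), the transporter of mature granule cells and many unipolar brush cells, stood at 21.3, 16.7 and 19.2 CPM in control and 13.7, 16.1 and 13.3 CPM in mutant libraries. The groups did not overlap, but cKO2 came close to Ctrl2. The log2 fold change was -0.41 (SE 0.12, 95% interval -0.68 to -0.14) with an edgeR adjusted p of 0.0308. The FPKM ratio of Slc17a7 to Slc17a6 was 0.252, 0.177 and 0.204 in control and 0.204, 0.251 and 0.210 in mutant libraries, a log2 difference of 0.08 with an exact permutation p of 0.8. Leaving out Ctrl2 or cKO2 turned its sign.

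**Figure D3:**
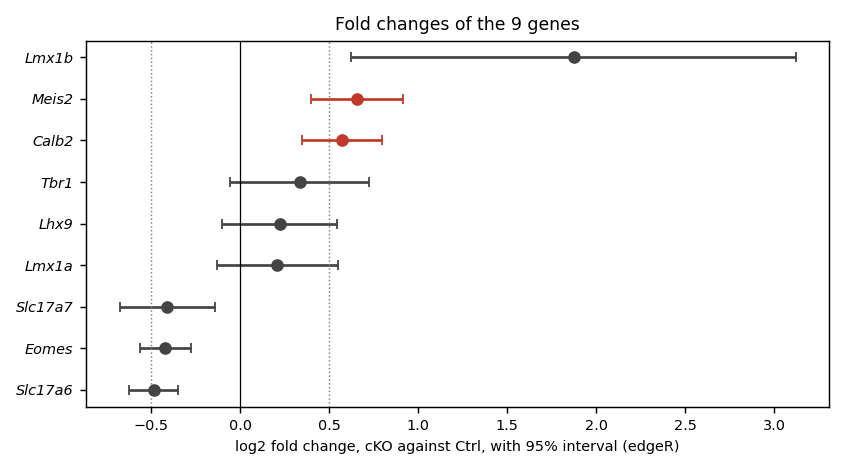
Log2 fold change of mutant against control libraries (x axis) for each of the 9 genes, with the 95% interval from edgeR; dotted lines mark 0.5 in either direction and red marks the genes called. Meis2 and Calb2 are called higher, the intervals of Slc17a6, Eomes and Slc17a7 lie below 0, and the interval of Lmx1b is the widest, from 0.62 to 3.12.

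The remaining transporter of this family, Slc17a8 (VGLUT3), went the other way. It rose from 464, 443 and 390 counts in control to 744, 676 and 647 counts in mutant libraries, with a log2 fold change of 0.60 (SE 0.09) and an edgeR adjusted p of 0.00109. Summed over Slc17a6, Slc17a7 and Slc17a8, the FPKM were 25.7, 26.4 and 26.1 in control and 24.0, 24.0 and 22.7 in mutant libraries. Every mutant sum was lower, by 2.53 FPKM on average. The share of the sum from Slc17a8 was 24.6%, 22.9% and 20.2% in control and 37.8%, 38.5% and 37.6% in mutant libraries. The sum and the share were chosen after Slc17a8 was seen to rise and are given as a description. The share from Slc17a6 was 64.0% ± 3.31 in control and 50.8% ± 1.44 in mutant libraries (SD, n = 3).

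**Figure D4:**
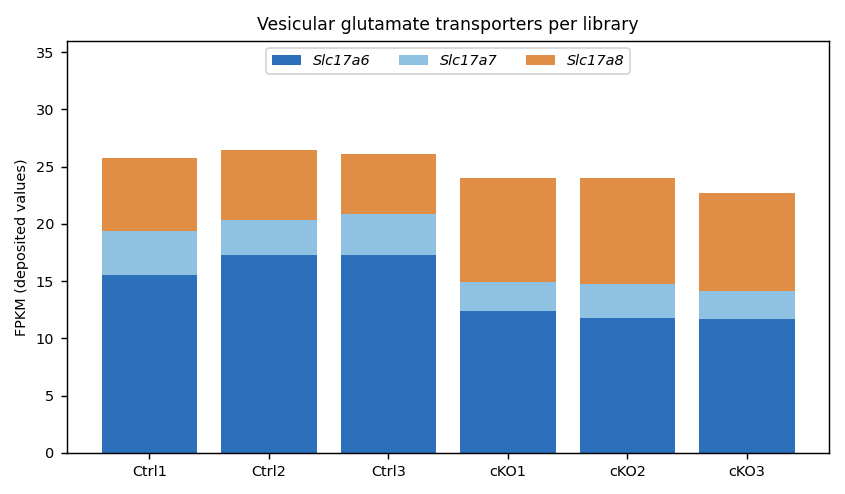
Deposited FPKM (y axis, starting at 0) of the vesicular glutamate transporters Slc17a6, Slc17a7 and Slc17a8, stacked for each control and mutant library. The stacks are 25.7 to 26.4 FPKM high in control and 22.7 to 24.0 FPKM high in mutant libraries, and the Slc17a8 segment is larger in every mutant library.

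Per length, Calb2, Eomes and Slc17a6 had the highest control levels, at 18.1 ± 1.91, 17.4 ± 0.455 and 16.7 ± 1.04 FPKM (SD, n = 3), and their libraries overlapped. Slc17a7 (3.50 ± 0.423 FPKM) and Lmx1a (3.21 ± 0.534 FPKM) followed and overlapped, then Meis2 at 1.80 ± 0.295 FPKM. Tbr1 (0.847 ± 0.0933 FPKM) and Lhx9 (0.720 ± 0.0939 FPKM) overlapped, and Lmx1b was lowest at 0.145 ± 0.0235 FPKM. In mutant libraries Calb2, at 27.0 ± 2.78 FPKM, stood above Eomes (13.1 ± 0.777 FPKM) and Slc17a6 (12.0 ± 0.397 FPKM) in every library. Meis2, at 2.85 ± 0.131 FPKM, there overlapped Slc17a7 at 2.65 ± 0.268 FPKM.

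Over the 6 libraries, the genes whose log2 CPM profile, centred on the control mean, lay closest to that of a member were sought among 14316 protein-coding genes. Genes chosen in this way share much of the fold change of the member by construction, so their calls are a description and not a separate result. For Eomes these were Gabpb1, Prdx4 and Cdkn2c, at Euclidean distances of 0.0437, 0.0766 and 0.0821. For Slc17a6 they were Smc1a, Jade3 and Rasgef1b, at 0.0659 to 0.0772, of which Jade3 was called lower. The nearest to Meis2 were Camk2a, Fmo1 and Kcns1 and the nearest to Calb2 were Matk, Elfn2 and Rnf112, at distances between 0.132 and 0.149, and all 6 were called higher. Lmx1b had no close neighbour, its nearest being Slc4a5 at 0.407, Kcnj13 at 0.927 and Cldn1 at 0.975. Tbr1 lay nearest to Hes1, Npas2 and Plcb4, Lhx9 to Arhgef19, Rnf227 and Atg9a, Lmx1a to Abcd4, Brd3os and Sh2d5, and Slc17a7 to Mtbp, Epha2 and Cyp39a1. None of these last 12 genes was called.

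Among 7 other genes of nuclear neurons, 1 was called, Olig2, which rose by a log2 fold change of 0.66 (edgeR adjusted p = 3.07e-04), and the list median was 0.24. Irx3 stood at 0.44 and Pou3f1 at 0.48, with edgeR adjusted p of 0.0313 and 0.179. Lhx2 had 51 counts in Ctrl1 and 10 to 29 in every other library. Of 6 other genes of unipolar brush cells, with a median of 0.07, 1 was called: Wls, the Wnt secretion factor of the rhombic lip, rose by 0.58 (edgeR adjusted p = 6.32e-04). The phospholipase gene Plcb4 stood at 0.37 (edgeR adjusted p = 0.00921) and Plcb1 at -0.28 (edgeR adjusted p = 0.0362).

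The members were set beside genes of neighbouring lineages. All 6 granule progenitor genes fell, with a median log2 fold change of -1.21. All 9 tested granule neuron genes had negative log2 fold changes, with a median of -0.52. Of these, 5 were called lower (Neurod1, Reln, Pax6, Rbfox3 and Cbln1, from -1.16 to -0.52). Another 3 had an edgeR adjusted p under 0.01 but fell short of the fold limit. Gabra6, of mature granule cells, had 2 to 8 counts and was not tested. Of 7 genes of inhibitory nuclear neurons and Purkinje cells, none had a negative log2 fold change, and the median was 0.63. Those called higher were 4 (Calb1, Slc6a5, Pcp2 and Car8, from 0.63 to 0.68).

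Genes of other regions that express members were also counted. The forebrain factors Emx1, Emx2 and Fezf2 had 0 to 5 counts in every library, and Neurod6 had a log2 fold change of -0.10 (edgeR adjusted p = 0.496). The hindbrain Hox genes had 0 to 10 counts, and none of the 8 hindbrain genes was tested. Of 4 tested genes listed for the midbrain, Pou4f2 and Barhl2 were called lower, with log2 fold changes of -3.54 and -1.58. Pax7 stood at 1.07 (edgeR adjusted p = 0.115) and Pou4f1 at 0.27 (edgeR adjusted p = 0.510). Barhl2 had 509 to 553 counts in control libraries, against 9 to 25 for Pax7. Whether the reads of these genes come from midbrain cells was not tested.

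Relatives and partners of the T-box, LIM-homeodomain and Meis factors, Tbx21 and Meis1 among them, were measured too, and 2 of 17 were called, with a median of 0.20. Lmo3, a LIM-only protein that competes for LIM cofactors, rose by 0.73 (edgeR adjusted p = 3.04e-04), although unstated strand use leaves reads of overlapping antisense genes, with up to 22 counts each, unseparated. The cofactor Ldb2 rose by 0.55 (edgeR adjusted p = 0.00639). Pknox1, a TALE relative of Meis2, stood at -0.39 (edgeR adjusted p = 0.00146) and the LIM-only gene Lmo2 at -0.47 (edgeR adjusted p = 0.00161), short of the fold limit. Among 10 tested genes of transmitter loading and glutamate handling, 2 had negative log2 fold changes, and the median was 0.36. In this list 3 genes were called higher and none lower. Called higher beside Slc17a8 were Slc32a1, the vesicular transporter of GABA and glycine, at 0.65 (edgeR adjusted p = 6.61e-05), and Slc1a6, the glutamate transporter of Purkinje cells, at 0.72 (edgeR adjusted p = 2.44e-04). Slc1a3, the glutamate transporter of Bergmann glia, stood at 0.37 (edgeR adjusted p = 2.20e-04).

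**Figure D5:**
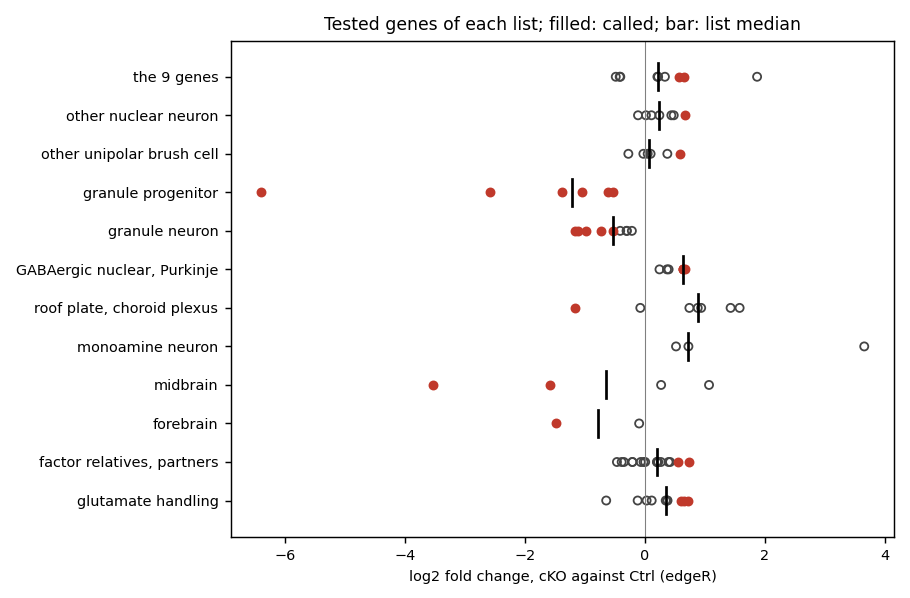
Log2 fold change of mutant against control libraries (x axis) for the tested genes of each list (rows), with filled red points for called genes, open points for the others and a bar at the list median. Granule progenitor genes all lie below 0 with a median of -1.21, genes of inhibitory nuclear neurons and Purkinje cells have a median of 0.63, and the 9 genes spread to both sides with a median of 0.22.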

How the data were processed

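RNA from P1 cerebella of 3 control and 3 mutant libraries was sequenced by the authors after poly(A) selection. Per the submitters' processing notes, HISAT2 2.0.5 and featureCounts 1.5.0-p3 were used with mm10, and the authors deposited read counts per gene, not normalized, together with FPKM values, which are scaled to depth and gene length. The annotation release, strand setting and treatment of multi-mapped reads are not given in the sources used here. IDs, positions and lengths of the 9 genes matched GENCODE M21.

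Groups came from the genotype labels. Counts were tested with edgeR 4.0.16 (R 4.3.3): filterByExpr kept 17505 genes holding 99.8% of counts, followed by TMM scaling, the quasi-likelihood test and Benjamini-Hochberg adjustment over all tested genes, with the study's limits of 0.01 and 0.5. CPM use TMM-scaled library sizes. Ratios of FPKM were compared by exact two-sided permutation tests (smallest p 0.1). Alternatives used DESeq2 1.42.0, limma 3.58.1, other scalings, filters, limits, covariates and left-out libraries. The scripts were tested on simulated data.

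The members and lists were chosen with earlier results of these data known. Named genes were all members, at most the 4 genes of smallest p and those near 0 counts in each list, the 3 nearest profiles per member and library checks. Lhx2, Ttr, Folr1, Msx1, Cbln1, Ldb2, Meis1, Tbx21 and Th fall outside this rule and were named after their values were seen. A few list genes are not reported here.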

Additional observations from a re-analysis of the deposited data

How the results depend on the processing

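Against 635 genes lower, 530 higher, 2 of the 9 genes and 26 list genes called, limma on log2(FPKM + 1) called 330 higher and 1 of the 9, and limma on log2(FPKM + 0.1) called 1 of the 9. An adjusted p under 0.05 with no fold limit gave 2252 lower, 2136 higher, 6 of the 9 and 43 list genes, and a test against a log2 fold change of 0.5 gave 145, 30, 0 and 12. Leaving out each library in turn gave 492 to 778 lower, 349 to 569 higher (fewest without cKO3), 0 to 3 of the 9 (0 without cKO3, 1 without Ctrl2 or cKO1, 3 without cKO2) and 24 to 29 list genes. Leaving out cKO1 and cKO3 together, an alternative chosen after seeing the data, gave 281 lower, 143 higher and 0 of the 9; the mutant group then has 1 library, assumed to vary like the controls. The log2 ratio of Slc17a7 to Slc17a6 turned to -0.042 without Ctrl2 and -0.015 without cKO2, the range over left-out libraries being -0.042 to 0.21. No log2 fold change of the 9 genes changed sign under 19 alternatives. The limit of 0.05 and the test against 0.5 reuse the fold changes of the main fit, so no sign could change there. The value of Lmx1b dropped to 0.12 without cKO1 and cKO3.

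With the replicate number as a block, edgeR called 696 lower, 561 higher, 2 of the 9 and 26 list genes, and no call among the 9 changed. Same-numbered libraries deviated together for numbers 1 and 2 (r = 0.243 and 0.265) but not 3 (r = -0.163), and Ctrl1 correlated most with cKO3 (r = 0.268), so the numbers were not taken as pairs. Depth limits Lmx1b most, at 10 to 13 counts in control libraries.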
